A study of Mus musculus with 9 samples.

Results

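The amino acid transporters described here are the rat liver transcripts of 7 solute carrier families, Slc1, Slc3, Slc6, Slc7, Slc36, Slc38 and Slc43. They were chosen by gene symbol, as every row of the deposited count table that belongs to these families without Slc7a11 and Slc1a2, which gave 59 of 37203 rows. The rule used symbols and no measured levels, but it was set with earlier results of these data known. Most members carry amino acids across the plasma membrane, but the symbols also bring in carriers of taurine, betaine, creatine and neurotransmitters (Slc6), a nucleobase carrier (Slc43a3) and proteins that sit mainly on lysosomes (Slc36a1, Slc38a7 and Slc38a9). Of the 59, 10 had no count in any library, 20 had counts too low to be tested, and 29 were tested, each with a mean of at least 1 CPM (a gene's counts relative to the total of its library, scaled by TMM factors) in a group.

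RNA came from livers that the labels assign to male Wistar rats, in 9 libraries of 3 groups. In the schisandrin B group, rats had received carbon tetrachloride (CCl4) and, from the fifth week on, also daily schisandrin B, a lignan of Schisandra fruit, for 4 weeks. Rats of the fibrosis group had received CCl4 alone, a solvent that injures hepatocytes once they metabolise it. Its course, in both groups, lasted 8 weeks with 3 doses in each week, of 2 mL/kg of a solution that held 50% CCl4 in olive oil. Rats of the normal group had received olive oil in its place. The study used schisandrin B at 25 and at 50 mg/kg, with 8 animals in each group, and the labels do not say which dose the 3 libraries had. They also leave unstated whether each library is another animal, so every SD, SE and p-value reflects variation among libraries, which may be technical.

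Amino acids are too polar to cross membranes unaided. Heavy subunits of the Slc3 family carry Slc7 light subunits to the cell surface, where the pairs exchange one amino acid for another, while cationic Slc7 carriers work alone and bring in arginine and lysine. Sodium-coupled Slc38 and Slc1 carriers load cells with alanine, serine, glutamine and glutamate. Hepatocytes take up amino acids from portal blood through Slc38a2, Slc38a3, Slc38a4 and Slc7a2, and turn them into glucose, urea, glutathione and plasma proteins. When amino acids run short or proteins misfold, the kinases that phosphorylate eIF2-alpha raise the transcription factor Atf4, which is known to induce several of these carriers in cultured cells.

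Library totals ran from 10320299 to 16255167 counts, so that 3 counts, taken as the floor, make between 0.176 and 0.287 CPM, depending on the library. Fibrosis replicate 1 stood apart from its group, with a chi-square per degree of freedom of 98.0 and 116 against the other fibrosis libraries, where the other pairs within a group had 15.1 to 43.7. The Y-linked genes Kdm5d and Eif2s3y stood at 11 to 13.3 and 10.4 to 13.3 CPM in schisandrin B libraries and at 5.91 to 10.6 and 9.08 to 11.3 CPM in fibrosis libraries. Both had 0 counts in every library labelled normal, although the animals are labelled male. A difference of sex and one of treatment cannot be told apart in any comparison with the normal libraries. Albumin and 8 other hepatocyte markers summed to 192729 to 214040.1 CPM in schisandrin B, 69391 to 114132 CPM in fibrosis and 229808 to 269223 CPM in normal libraries. In bulk tissue, fewer cells of a type and less RNA per cell cannot be told apart.

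The transporters moved in both directions in fibrosis livers. Transcripts of the exchanger subunits Slc3a2 and Slc7a5, the cationic carrier Slc7a1, the serine and alanine carrier Slc1a4 and the glycine carrier Slc6a9 rose, while those of the hepatocyte carrier Slc38a4, the GABA and betaine carriers Slc6a13 and Slc6a12 and the 3 Slc43 members fell. Schisandrin B livers, set against fibrosis livers, showed lower Slc3a2, Slc7a5, Slc7a1, Slc1a4 and Slc6a9, and higher Slc38a4, Slc6a12, Slc6a13 and Slc43a1. Against normal livers, they had lower Slc7a5, Slc6a9, Slc43a1 and Slc43a3 and higher Slc38a2. Of these 5 calls, those of Slc7a5 and Slc43a1 alone held in every alternative fit counted below. In fibrosis against normal libraries, edgeR called 16 of the 29 tested members (55.2%) at an adjusted p under 0.05, 8 higher and 8 lower, where it called 48.3% of all 14581 tested genes, 25.4% higher and 22.9% lower. In schisandrin B against fibrosis libraries, 17 members (58.6%) were called, 9 higher and 8 lower, beside 47.3% of all genes, 22.5% higher and 24.8% lower. Between schisandrin B and normal libraries, 5 members (17.2%) were called, 1 higher and 4 lower, beside 10.5% of all genes, 5.25% in each direction. The 3 comparisons share libraries pairwise, so their calls are not independent of each other. The share of counts that fell on all members together lay between 0.316% and 0.411% in schisandrin B, between 0.374% and 0.414% in fibrosis and between 0.292% and 0.339% in normal libraries.

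The median size of the log2 fold change, regardless of sign, was 1.07 over the tested members and 0.74 over all tested genes in fibrosis against normal, 1.01 and 0.72 in schisandrin B against fibrosis, and 0.32 and 0.37 in schisandrin B against normal. The signed medians over the members were -0.33, 0.24 and 0.08, and over all genes 0.03, -0.03 and 0.00. Groups did not overlap in 22 of the 29 members (75.9%, beside 55.8% of all genes) in fibrosis against normal, in 18 (62.1%, beside 56.8%) in schisandrin B against fibrosis and in 11 (37.9%, beside 38.7%) in schisandrin B against normal. With library totals in place of TMM factors, which shifted the median of all genes by 0.43 on the log2 scale in fibrosis against normal and by -0.27 in schisandrin B against fibrosis, the split moved. Then 11 members were higher and 5 lower in fibrosis against normal, and 6 higher and 10 lower in schisandrin B against fibrosis. The calls over all 14581 tested genes moved too. They became 5651 higher and 1917 lower in fibrosis against normal, and 2269 higher and 4698 lower in schisandrin B against fibrosis. Without fibrosis replicate 3, 11 of the 29 members were called lower in fibrosis against normal, and 13 of the 32 members that then passed the filter on low counts.

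**Figure D1:**
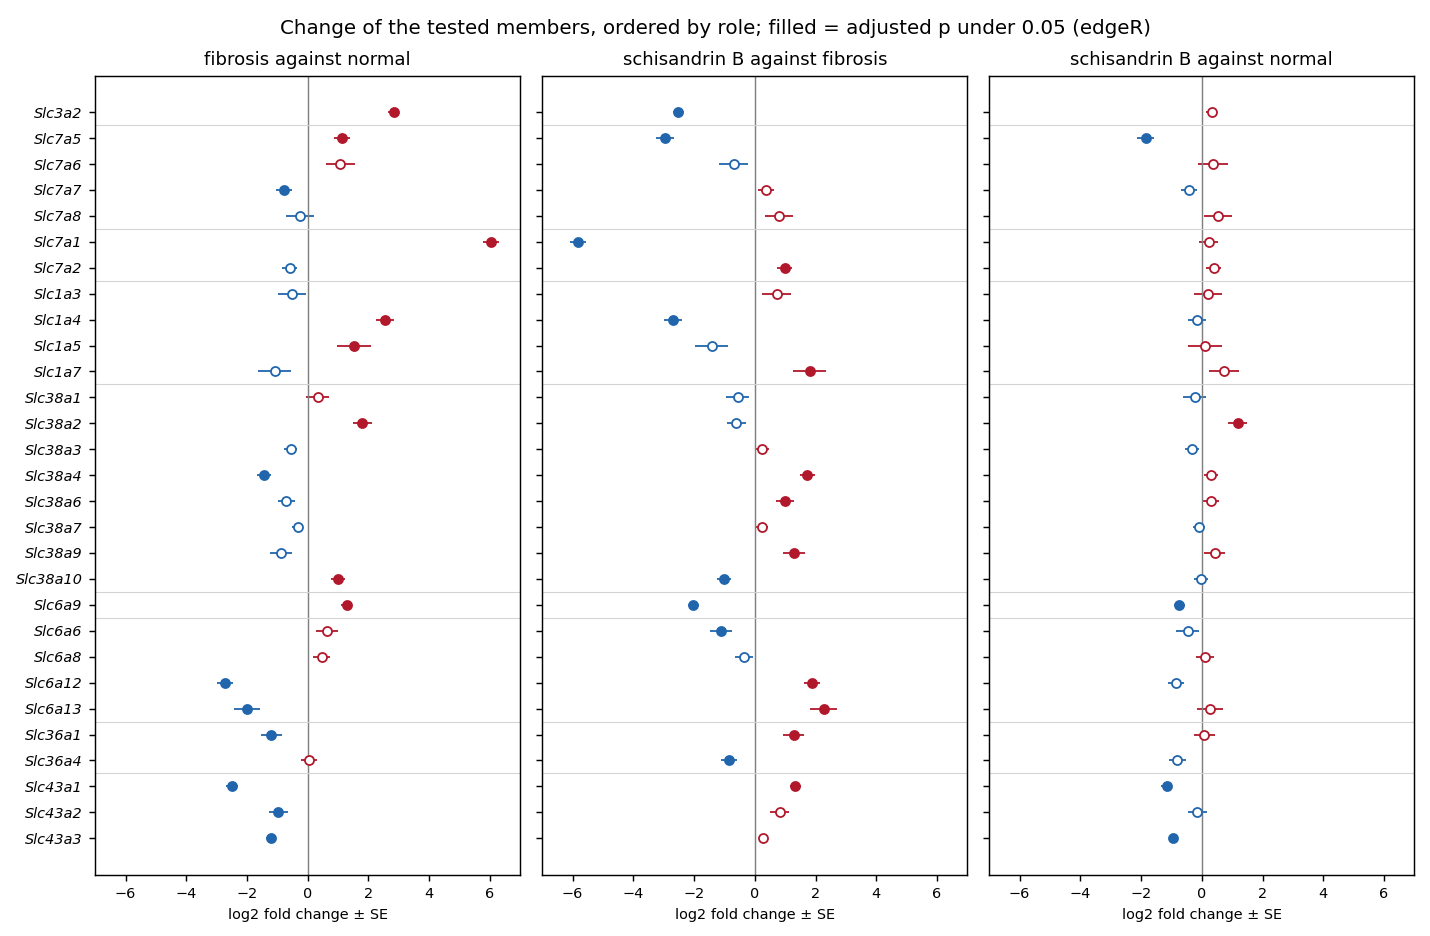
Log2 fold change (horizontal axis, with SE as bars) of each of the 29 tested members in the 3 comparisons, ordered by role from the Slc3 heavy subunit at the top to Slc43 at the bottom. Red points lie above 0 and blue points below, and filled points have an edgeR adjusted p under 0.05; Slc7a1 lies farthest from 0 in both comparisons with the fibrosis libraries, at 6.04 and -5.81.

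The exchanger subunits split, with the heavy subunit and 1 of its light chains high in fibrosis libraries. Slc3a2, known as CD98 or 4F2hc, which brings Slc7 light chains to the membrane, had 97.8, 105 and 116 CPM in schisandrin B, 661, 626 and 534 CPM in fibrosis and 84.2, 83.8 and 86.7 CPM in normal libraries. All 3 fibrosis libraries lay far above the other 6, which were close together. The log2 fold change, given here and for the other members with its SE, was 2.84 ± 0.18 (adjusted p 1.87e-06) in fibrosis against normal, a 7.15-fold rise, and -2.51 ± 0.18 (adjusted p 4.93e-06) in schisandrin B against fibrosis. Against normal libraries, schisandrin B libraries were all higher, but by 0.32 ± 0.17 without a call (adjusted p 0.259). Slc3a1, the other heavy subunit, known from kidney and gut, had 0 counts in schisandrin B and normal libraries and 0, 3 and 2 in fibrosis libraries.

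Slc7a5, or LAT1, the light chain that imports leucine and other large neutral amino acids in exchange for glutamine, had 6.02, 11.2 and 7.12 CPM in schisandrin B, 84.9, 60.4 and 45.2 CPM in fibrosis and 28.1, 27.2 and 32.5 CPM in normal libraries. The 3 groups were fully apart, with schisandrin B libraries lowest and fibrosis libraries highest. It rose by 1.12 ± 0.26 (adjusted p 0.00437) in fibrosis against normal, and in schisandrin B libraries it fell by 2.96 ± 0.28 against fibrosis (adjusted p 1.77e-05) and by 1.85 ± 0.28 against normal (adjusted p 0.00187). Slc7a5 averaged 8.10 ± 2.70 CPM in schisandrin B libraries and 29.3 ± 2.86 CPM in normal libraries (SD, n = 3 each). Its partner Slc3a2 averaged 106 ± 9.32 CPM in schisandrin B and 84.9 ± 1.59 CPM in normal libraries.

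None of the other 3 tested light chains was called higher in fibrosis against normal, though library totals gave that call for Slc7a6. Slc7a7, or y+LAT1, which exports arginine and lysine in exchange for neutral amino acids, had 8.98, 6.93 and 8.67 CPM in schisandrin B, 6.48, 4.47 and 8.05 CPM in fibrosis and 13.1, 9.35 and 10.3 CPM in normal libraries. Its fibrosis libraries all lay below the normal ones, with a fall of 0.78 ± 0.26 (adjusted p 0.0274). The call was lost with library totals (adjusted p 0.374), in a fit of the 2 groups alone (adjusted p 0.0616), without fibrosis replicate 2 (adjusted p 0.0956) and without normal replicate 1 (adjusted p 0.106). Slc7a6, or y+LAT2, a relative of Slc7a7 in many tissues, had 2.96, 1.68 and 1.37 CPM in schisandrin B, 5.67, 1.82 and 2.29 CPM in fibrosis and 1.20, 1.76 and 1.62 CPM in normal libraries. The fibrosis libraries were all higher than the normal ones, by 1.07 ± 0.48 without a call (adjusted p 0.0827), and the call was made with library totals (adjusted p 0.0203) and without fibrosis replicate 2 (adjusted p 0.0402). Slc7a8, or LAT2, an exchanger of small and large neutral amino acids, overlapped between groups, with 6.52 ± 2.26 CPM in schisandrin B, 3.79 ± 2.12 CPM in fibrosis and 4.49 ± 2.16 CPM in normal libraries (SD, n = 3 each). It was called in schisandrin B against fibrosis only without fibrosis replicate 1 (1.33, adjusted p 0.0272). Of the remaining light chains of the list, Slc7a10, Slc7a12 and Slc7a13 had no counts and Slc7a9 had at most 2 in a library.

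The cationic carriers Slc7a1 and Slc7a2 take up arginine, lysine and ornithine, Slc7a1 in most tissues and Slc7a2, in a low-affinity form, in liver. Slc7a1 had 1.34, 0.802 and 1.19 CPM in schisandrin B, 76.0, 54.8 and 54.7 CPM in fibrosis and 1.12, 0.880 and 0.810 CPM in normal libraries. That is 10 to 14 counts in each of the 6 schisandrin B and normal libraries and 724 to 939 in the fibrosis libraries. The change was 6.04 ± 0.26 (adjusted p 2.05e-07) in fibrosis against normal, 65.7-fold, and -5.81 ± 0.26 (adjusted p 7.42e-07) in schisandrin B against fibrosis, the largest of the 29 tested members in both. Schisandrin B and normal libraries overlapped (0.23 ± 0.31, adjusted p 0.724).

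Slc7a2 had 543, 418 and 496 CPM in schisandrin B, 319.7, 229 and 188 CPM in fibrosis and 328, 460.0 and 325 CPM in normal libraries, with all fibrosis libraries below the rest. It rose by 0.98 ± 0.24 (adjusted p 0.00582) in schisandrin B against fibrosis. In fibrosis against normal it stood at -0.59 ± 0.24 (adjusted p 0.0598), without a call, but was called lower by DESeq2 (adjusted p 0.033), by limma voom (adjusted p 0.0476) and without fibrosis replicate 1 (adjusted p 0.00868). Levels of different genes are not compared here, because the counts are not scaled by transcript length. Slc7a3 had at most 2 counts in a library, and Slc7a14 had none.

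**Figure D2:**
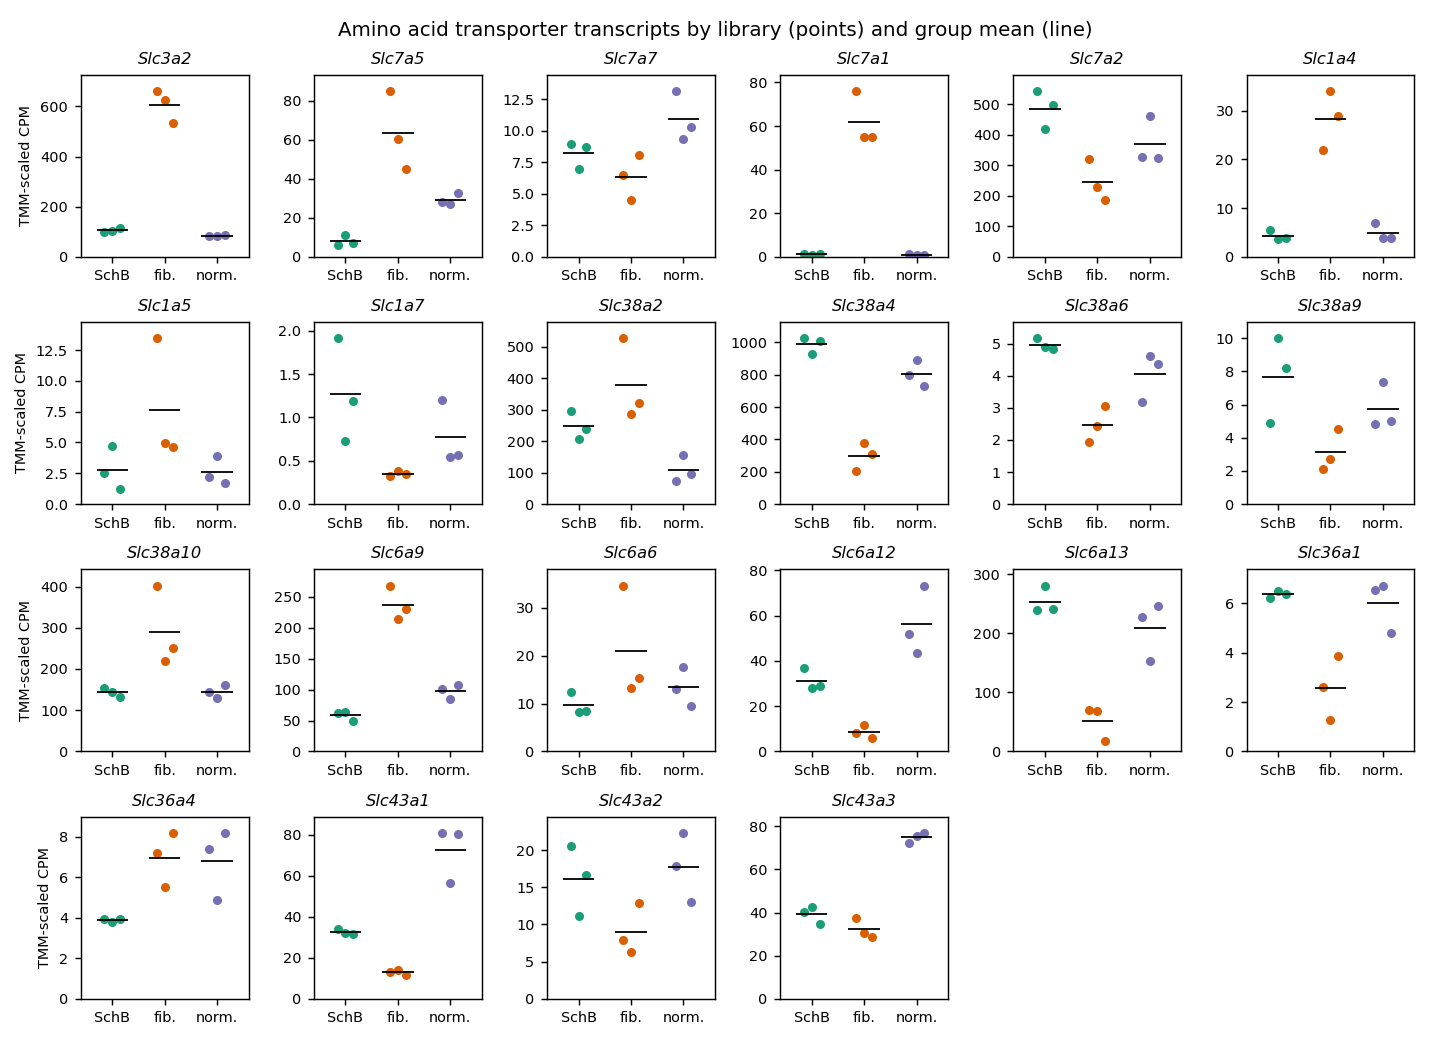
TMM-scaled CPM (vertical axes, linear from 0) of the 22 members called in at least 1 comparison, with 1 point per library and a line at the group mean, for schisandrin B, fibrosis and normal libraries. Slc3a2, Slc7a1, Slc1a4 and Slc6a9 have all fibrosis points above the others, whereas Slc38a4, Slc6a12 and Slc6a13 have all fibrosis points below the others.

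Of the 4 Slc1 members tested, the neutral carriers Slc1a4 and Slc1a5 rose in fibrosis against normal libraries. Slc1a4, or ASCT1, which exchanges alanine, serine, cysteine and threonine, had 5.45, 3.72 and 3.93 CPM in schisandrin B, 21.9, 34.0 and 28.9 CPM in fibrosis and 6.87, 3.93 and 3.81 CPM in normal libraries, with no overlap of fibrosis with either other group. It rose by 2.54 ± 0.28 (adjusted p 3.51e-05) in fibrosis against normal and fell by 2.70 ± 0.29 (adjusted p 3.31e-05) in schisandrin B against fibrosis. Slc1a5, or ASCT2, a glutamine exchanger of dividing cells, had 2.48, 4.74 and 1.19 CPM in schisandrin B, 13.4, 4.92 and 4.64 CPM in fibrosis and 2.23, 3.93 and 1.70 CPM in normal libraries. Fibrosis replicate 1 was the highest library, and the schisandrin B libraries overlapped both groups. The rise in fibrosis against normal of 1.53 ± 0.55 (adjusted p 0.0406) was 0.85 without that library (adjusted p 0.172). Its call was also lost without normal replicate 1 (adjusted p 0.117) or 3 (adjusted p 0.131), without a filter on low counts (adjusted p 0.0545) and with limma voom (adjusted p 0.0565). Slc1a5 in schisandrin B against fibrosis stood at -1.42 ± 0.55 (adjusted p 0.0544), with a call under library totals (adjusted p 0.0231), DESeq2 (adjusted p 0.0259) and without schisandrin B replicate 2 (adjusted p 0.0227) or fibrosis replicate 2 (adjusted p 0.0447) or 3 (adjusted p 0.0371).

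Slc1a7, or EAAT5, a glutamate carrier known from retina, had 20, 10 and 13 counts in schisandrin B, 4, 5 and 6 in fibrosis and 14, 8 and 7 in normal libraries. Its scaled level rose by 1.81 ± 0.54 (adjusted p 0.0163) in schisandrin B against fibrosis, where the groups did not overlap, and the call was lost without schisandrin B replicate 1 (adjusted p 0.0703). In fibrosis against normal it stood at -1.09 ± 0.56 (adjusted p 0.126). Slc1a3, or GLAST, the glutamate carrier of astrocytes, had 1.56 ± 0.615 CPM in schisandrin B, 0.957 ± 0.242 CPM in fibrosis and 1.36 ± 0.698 CPM in normal libraries (SD, n = 3 each) and was called in no comparison. Slc1a1 and Slc1a6 had at most 3 counts in a library. Slc1a2, which was set aside, was lower in fibrosis than in normal libraries (-2.53 ± 0.34 (adjusted p 0.000133)), with 38.2 CPM in schisandrin B, 4.77 CPM in fibrosis and 27.8 CPM in normal libraries. Slc7a11, also set aside, had counts in fibrosis libraries alone, with a mean of 30.3 CPM.

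The Slc38 family holds the sodium-coupled carriers of alanine and glutamine, and its hepatocyte members did not move together. Slc38a2, or SNAT2, the system A carrier that cells raise on amino acid shortage, had 298, 208 and 240.4 CPM in schisandrin B, 527, 285 and 321 CPM in fibrosis and 74.3, 157 and 96.3 CPM in normal libraries. The normal libraries were the lowest 3, and the schisandrin B libraries overlapped the fibrosis ones. It rose by 1.79 ± 0.32 (adjusted p 0.000731) in fibrosis against normal. In schisandrin B against fibrosis it stood at -0.60 ± 0.31 (adjusted p 0.128) without a call, which library totals gave (adjusted p 0.0368). Slc38a2 was the 1 member called higher in schisandrin B than in normal libraries, by 1.19 ± 0.31 (adjusted p 0.0325). That call was lost without normal replicate 1 (adjusted p 0.114) or 3 (adjusted p 0.127) and without schisandrin B replicate 1 (adjusted p 0.112), 2 (adjusted p 0.0602) or 3 (adjusted p 0.0884), while the fold change ranged from 0.97 to 1.30 over these.

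Slc38a4, or SNAT4, the system A carrier found mainly in liver, went the other way, with 1025, 930.0 and 1009 CPM in schisandrin B, 204, 378 and 309 CPM in fibrosis and 799, 891 and 732 CPM in normal libraries. Every fibrosis library was below every other library. It fell by 1.44 ± 0.24 (adjusted p 0.000449) in fibrosis against normal and rose by 1.73 ± 0.24 (adjusted p 0.000156) in schisandrin B against fibrosis. Schisandrin B libraries all lay above the normal ones, by 0.29 ± 0.23 without a call (adjusted p 0.468). Slc38a3, or SNAT3, which moves glutamine in both directions in hepatocytes, had 1389, 938 and 1203 CPM in schisandrin B, 1082, 969 and 941 CPM in fibrosis and 1238, 1438 and 1743 CPM in normal libraries. Its fibrosis libraries were all below the normal ones, with a change of -0.56 ± 0.22 (adjusted p 0.0504), just short of a call. A call came with DESeq2 size factors (adjusted p 0.0462), DESeq2 (adjusted p 0.014), limma voom (adjusted p 0.043) and without fibrosis replicate 1 (adjusted p 0.0415) or normal replicate 1 (adjusted p 0.0426). The difference of 0.24 ± 0.22 in schisandrin B against fibrosis was not called (adjusted p 0.391), and the groups overlapped.

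Slc38a10, which carries glutamine, glutamate and aspartate, had 154, 145 and 132 CPM in schisandrin B, 402, 219 and 250.3 CPM in fibrosis and 144, 129 and 162 CPM in normal libraries. Fibrosis libraries were the highest 3. The change was 1.00 ± 0.23 (adjusted p 0.00412) in fibrosis against normal and -1.01 ± 0.23 (adjusted p 0.00398) in schisandrin B against fibrosis. Slc38a9, which senses arginine on lysosomes for the kinase mTORC1, had 4.87, 9.99 and 8.22 CPM in schisandrin B, 2.10, 2.72 and 4.52 CPM in fibrosis and 4.81, 7.38 and 5.02 CPM in normal libraries. Schisandrin B libraries were all above the fibrosis ones, and it rose by 1.29 ± 0.36 (adjusted p 0.012), a call lost with library totals (adjusted p 0.0628), without schisandrin B replicate 2 (adjusted p 0.06) and without that library and normal replicate 2 (adjusted p 0.0684). In fibrosis against normal it stood at -0.87 ± 0.36 (adjusted p 0.0669) and was called lower by DESeq2 (adjusted p 0.0449) and without fibrosis replicate 3 (adjusted p 0.022).

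Slc38a6, a relative with poorly known substrates, had 5.16, 4.88 and 4.84 CPM in schisandrin B, 1.94, 2.42 and 3.05 CPM in fibrosis and 3.18, 4.61 and 4.37 CPM in normal libraries. Fibrosis libraries were the lowest 3 and schisandrin B libraries the highest. It rose by 0.99 ± 0.28 (adjusted p 0.013) in schisandrin B against fibrosis, a call lost with library totals (adjusted p 0.093). In fibrosis against normal it stood at -0.71 ± 0.28 (adjusted p 0.0583), with a call by DESeq2 (adjusted p 0.0455) and without fibrosis replicate 3 (adjusted p 0.0432) or normal replicate 1 (adjusted p 0.0462). Slc38a1 and Slc38a7 were called in no comparison. Slc38a7, which lets glutamine out of lysosomes, averaged 25.2 ± 1.99 CPM in schisandrin B, 21.4 ± 5.01 CPM in fibrosis and 26.8 ± 1.74 CPM in normal libraries (SD, n = 3 each), and was called lower in fibrosis than in normal libraries when fibrosis replicate 3 was left out (-0.54, adjusted p 0.0296). Slc38a1, a system A carrier of brain and placenta, averaged 1.34 ± 0.221 CPM in schisandrin B, 1.98 ± 0.276 CPM in fibrosis and 1.59 ± 0.586 CPM in normal libraries (SD, n = 3 each). Slc38a5, Slc38a8 and Slc38a11 stayed too low to be tested, with at most 10 counts in a library.

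Of the Slc6 carriers of the amino acids found in proteins, Slc6a9 alone could be tested. Slc6a9, or GlyT1, which takes up glycine, had 62.9, 64.1 and 48.5 CPM in schisandrin B, 268, 214 and 230.1 CPM in fibrosis and 101, 84.2 and 107 CPM in normal libraries. The groups were fully apart, fibrosis highest and schisandrin B lowest. The change was 1.29 ± 0.19 (adjusted p 0.000196) in fibrosis against normal, -2.02 ± 0.19 (adjusted p 1.61e-05) in schisandrin B against fibrosis and -0.74 ± 0.18 (adjusted p 0.0271) in schisandrin B against normal. The last call was lost with library totals (adjusted p 0.0582) and without normal replicate 1 (adjusted p 0.0801) or 3 (adjusted p 0.107) or schisandrin B replicate 1 (adjusted p 0.0697), 2 (adjusted p 0.0685) or 3 (adjusted p 0.131). Slc6a20, a proline carrier, had 4, 12 and 5 counts in schisandrin B, 1, 5 and 3 in fibrosis and 7, 10 and 7 in normal libraries. The kidney and gut carriers Slc6a18 and Slc6a19 had no counts, as had Slc6a5, Slc6a14 and Slc6a15, and Slc6a7, Slc6a16 and Slc6a17 had at most 5 in a library.

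Of the other Slc6 carriers, 2 of the 4 tested fell in fibrosis against normal libraries, while the other pair, Slc6a6 and Slc6a8, was called higher with library totals alone. Slc6a13, or GAT2, the GABA and taurine carrier of hepatocytes, had 239, 280.3 and 241 CPM in schisandrin B, 70.8, 68.9 and 17.3 CPM in fibrosis and 228, 153 and 246 CPM in normal libraries. Fibrosis libraries were the lowest 3, and replicate 3 was far below the other fibrosis libraries. It fell by 2.00 ± 0.44 (adjusted p 0.00378) in fibrosis against normal and rose by 2.28 ± 0.44 (adjusted p 0.00195) in schisandrin B against fibrosis. Slc6a12, or BGT1, which takes up betaine and GABA, had 36.7, 28.0 and 29.1 CPM in schisandrin B, 7.93, 11.6 and 6.11 CPM in fibrosis and 52.1, 43.6 and 73.2 CPM in normal libraries. Its 3 groups were fully apart, with schisandrin B between the others. The change was -2.72 ± 0.27 (adjusted p 1.78e-05) in fibrosis against normal and 1.88 ± 0.27 (adjusted p 0.0002) in schisandrin B against fibrosis. Against normal, schisandrin B libraries stood at -0.85 ± 0.25 (adjusted p 0.055), and the call was made without a filter (adjusted p 0.0271), by DESeq2 (adjusted p 0.0286), by limma voom (adjusted p 0.0495) and in a fit of the 2 groups alone (adjusted p 0.0125).

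Slc6a6, the taurine carrier TauT, had 12.5, 8.31 and 8.49 CPM in schisandrin B, 34.6, 13.3 and 15.3 CPM in fibrosis and 13.0, 17.7 and 9.55 CPM in normal libraries, with fibrosis replicate 1 highest and the schisandrin B libraries all below the fibrosis ones. It fell by 1.11 ± 0.37 (adjusted p 0.0294) in schisandrin B against fibrosis. That call did not survive without fibrosis replicate 1 (-0.56, adjusted p 0.104), without schisandrin B replicate 2 (adjusted p 0.0997) or 3 (adjusted p 0.096), without schisandrin B and normal replicates 2 (adjusted p 0.105) and with limma voom (adjusted p 0.0504). In fibrosis against normal it stood at 0.65 ± 0.36 (adjusted p 0.166), with a call under library totals (adjusted p 0.0283). Slc6a8, the creatine carrier, averaged 8.42 ± 0.299 CPM in schisandrin B, 10.8 ± 4.07 CPM in fibrosis and 7.80 ± 1.82 CPM in normal libraries (SD, n = 3 each), and was called in none of the comparisons except with library totals in fibrosis against normal (adjusted p 0.0195). Slc6a2 had no counts, and Slc6a3 and Slc6a4 had at most 6 in a library.

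A GABA carrier better known from brain fell below the limit for testing but differed between groups. Slc6a11, or GAT3, had 0, 0 and 0 counts in schisandrin B, 3, 4 and 15 in fibrosis and 0, 1 and 0 in normal libraries. The ratio was 20.0 in fibrosis over normal, with an exact 95% counting interval of 3.24 to 826. When no filter was applied, edgeR called Slc6a11 higher in fibrosis than in normal libraries (adjusted p 0.0217) and lower in schisandrin B than in fibrosis libraries (adjusted p 0.00766). This interval and those given for other counts cover counting error only.

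All 3 Slc43 members fell in fibrosis against normal libraries, Slc43a2 without a call under library totals. Slc43a1, or LAT3, a sodium-independent carrier of leucine and other large neutral amino acids that hepatocytes express, had 33.9, 32 and 31.4 CPM in schisandrin B, 13.1, 14.1 and 11.5 CPM in fibrosis and 80.8, 56.6 and 80.2 CPM in normal libraries. The groups were fully apart, with fibrosis lowest and schisandrin B in between. The change was -2.49 ± 0.19 (adjusted p 3.53e-06) in fibrosis against normal, 1.33 ± 0.18 (adjusted p 0.000151) in schisandrin B against fibrosis and -1.16 ± 0.18 (adjusted p 0.00221) in schisandrin B against normal, so that schisandrin B libraries stood 2.24-fold below normal ones. Slc43a3, which carries purine nucleobases rather than amino acids, had 40.1, 42.5 and 34.7 CPM in schisandrin B, 37.3, 30.3 and 28.7 CPM in fibrosis and 72.1, 75.6 and 76.8 CPM in normal libraries. The normal libraries lay above the other 6. It changed by -1.22 ± 0.16 (adjusted p 0.000116) in fibrosis and by -0.94 ± 0.16 (adjusted p 0.00442) in schisandrin B against normal. Schisandrin B libraries, against fibrosis ones, stood at 0.28 ± 0.16 (adjusted p 0.171), with a call without fibrosis replicate 1 (adjusted p 0.0469). The call in schisandrin B against normal was lost without replicate 2 of both groups (adjusted p 0.0563).

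Slc43a2, or LAT4, a relative of Slc43a1 known from kidney, gut and placenta, had 20.5, 11.1 and 16.6 CPM in schisandrin B, 7.85, 6.28 and 12.9 CPM in fibrosis and 17.9, 22.3 and 13.0 CPM in normal libraries. The fibrosis libraries were the lowest 3 but for schisandrin B replicate 2, and their highest value nearly met the lowest normal one. Its fall of 0.97 ± 0.32 (adjusted p 0.0248) in fibrosis against normal kept the groups apart. It lost its call with library totals (adjusted p 0.263), without fibrosis replicate 1 (adjusted p 0.0693) or 2 (adjusted p 0.0864), without normal replicate 1 (adjusted p 0.0588) or 2 (adjusted p 0.1) and without schisandrin B and normal replicates 2 (adjusted p 0.091). Slc43a2 stood at 0.82 ± 0.32 (adjusted p 0.0507) in schisandrin B against fibrosis. It was called with DESeq2 size factors (adjusted p 0.0408), by DESeq2 (adjusted p 0.0301), without fibrosis replicate 3 (adjusted p 0.0119), without schisandrin B replicate 2 (adjusted p 0.0289) and without that library and normal replicate 2 (adjusted p 0.0343).

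The proton-coupled Slc36 carriers export small amino acids from lysosomes or take them up at the surface. Slc36a1, or PAT1, had 6.21, 6.49 and 6.39 CPM in schisandrin B, 2.59, 1.29 and 3.88 CPM in fibrosis and 6.53, 6.71 and 4.78 CPM in normal libraries, with fibrosis libraries lowest. It fell by 1.20 ± 0.35 (adjusted p 0.0148) in fibrosis against normal and rose by 1.28 ± 0.35 (adjusted p 0.0109) in schisandrin B against fibrosis. Library totals ended both calls (adjusted p 0.132 and adjusted p 0.0581), and the omission of schisandrin B and normal replicates 2 ended that in fibrosis (adjusted p 0.0715). Slc36a4, or PAT4, a carrier of proline and tryptophan, had 3.92, 3.79 and 3.93 CPM in schisandrin B, 7.21, 5.52 and 8.16 CPM in fibrosis and 7.39, 4.88 and 8.18 CPM in normal libraries. It fell in schisandrin B against fibrosis by 0.85 ± 0.27 (adjusted p 0.024), and all schisandrin B libraries lay below the other 6. The call was lost without schisandrin B replicate 1 (adjusted p 0.0748), 2 (adjusted p 0.0753) or 3 (adjusted p 0.0668), without fibrosis replicate 3 (adjusted p 0.0765) and without schisandrin B and normal replicates 2 (adjusted p 0.0646). Against normal, schisandrin B libraries were all lower, at -0.81 ± 0.27 (adjusted p 0.082), with a call in a fit of the 2 groups alone (adjusted p 0.0458).

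Slc36a2, or PAT2, a glycine and proline carrier known as a surface protein of brown fat cells, was counted mainly in a pair of libraries of different groups. It had 2, 22 and 1 counts in schisandrin B, 2, 4 and 3 in fibrosis and 0, 49 and 0 in normal libraries. Adipoq, the fat cell hormone adiponectin, had 139 counts in schisandrin B replicate 2 and 181 in normal replicate 2, and at most 8 in any other library. Plin1, which coats fat droplets, had 77 and 82 in these libraries and 0 in the other 7. Ucp1, the uncoupling protein of brown fat, had 41 counts in normal replicate 2, 1 in schisandrin B replicate 2 and 0 elsewhere. A list of 7 adipocyte markers, chosen after these values had been seen, summed to 68.0 and 56.6 CPM in those libraries and to 9.53 to 32 CPM in the others. Their part in the counts of Slc36a2 was not tested. Without both libraries, 8 of the 29 tested members were called higher and 6 lower in fibrosis against normal. In schisandrin B against fibrosis, 9 were called higher and 7 lower. In schisandrin B against normal, 1 was called higher and 2 lower, and Slc6a9 and Slc43a3 lost their calls. Calls over all genes were not counted for this fit, so these counts have no share to stand beside.

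**Figure D3:**
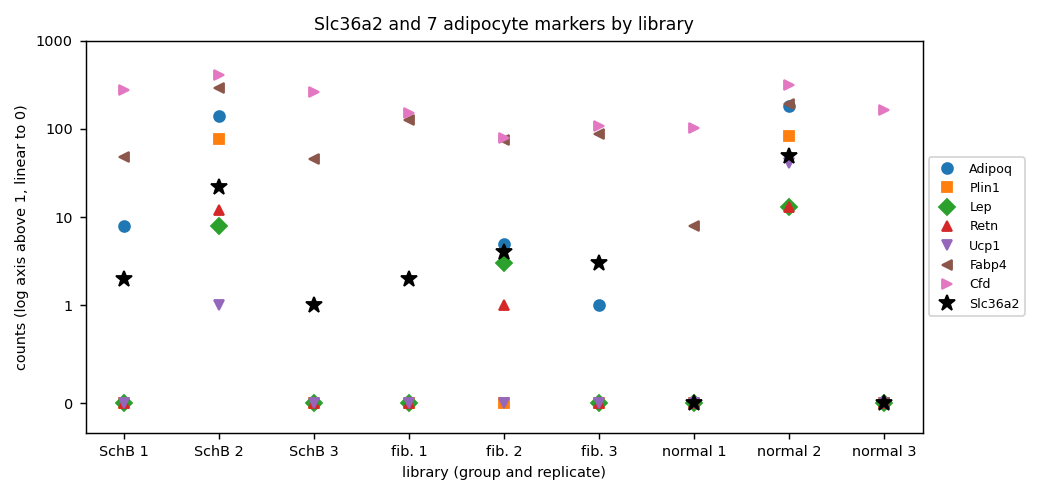
Counts (vertical axis, logarithmic above 1 and linear from 1 to 0) of Slc36a2 (black stars) and of 7 adipocyte markers in each of the 9 libraries, with points at 0 overlying each other. Slc36a2 reaches 22 counts in schisandrin B replicate 2 and 49 in normal replicate 2, where Adipoq reaches 139 and 181.

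The remaining members that had counts but were not tested were low throughout. Slc7a4, a Slc7 member with no known transport activity, had 3, 12 and 10 counts in schisandrin B, 0, 0 and 2 in fibrosis and 4, 4 and 5 in normal libraries, a ratio of 15.2 in schisandrin B over fibrosis with an exact 95% counting interval of 3.78 to 132. Without a filter, edgeR called it higher there (adjusted p 0.00655). Slc7a15 had 6 counts in normal replicate 2, 2 in fibrosis replicate 2 and 0 elsewhere, and Slc36a3 had at most 4 in a library.

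Most genes listed as responding to amino acid shortage through the kinase GCN2 and Atf4 were high in the same fibrosis libraries. Of 20 genes on this list, all tested, 17 rose and 2 fell in fibrosis against normal, with a median log2 fold change of 2.32. Of all tested genes, 25.4% rose and 22.9% fell there. Schisandrin B libraries had 1 higher and 16 lower than fibrosis libraries, with a median of -2.04, beside 22.5% and 24.8% of all tested genes. Against normal libraries, 2 were called lower, with a median of 0.10, beside 10.5% of all tested genes called, 5.25% in each direction. Psat1, which makes serine, averaged 1.43 CPM in schisandrin B, 24 CPM in fibrosis and 3.29 CPM in normal libraries. Gars, which charges tRNA with glycine, averaged 57.9 CPM in schisandrin B, 267 CPM in fibrosis and 50.1 CPM in normal libraries. Ddit3 and Trib3, a transcription factor of stressed cells and its target, changed by 3.97 ± 0.20 (adjusted p 3.59e-07) and 5.32 ± 0.37 (adjusted p 2.49e-06) in fibrosis against normal and by -3.73 ± 0.19 (adjusted p 1.71e-06) and -5.21 ± 0.36 (adjusted p 4.83e-06) in schisandrin B against fibrosis. The 2 that fell in fibrosis against normal were Eif2ak4, which encodes GCN2, and Cth. Eif2ak4 averaged 9.85 CPM in schisandrin B, 11.98 CPM in fibrosis and 20.5 CPM in normal libraries. It changed by -0.77 (adjusted p 0.00971) in fibrosis and by -1.05 (adjusted p 0.00968) in schisandrin B against normal. Cth averaged 319 CPM in schisandrin B, 51.3 CPM in fibrosis and 602 CPM in normal libraries. Its change in fibrosis against normal was -3.55 (adjusted p 1.18e-05). The part of GCN2 and Atf4 in the transporter changes was not tested.

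The genes that report amino acids to mTORC1, the kinase complex that drives protein synthesis, had no common direction, and library totals in place of TMM factors turned which direction held more calls. Of 33 tested, 5 rose and 10 fell in fibrosis against normal, 10 rose and 6 fell in schisandrin B against fibrosis, and 2 rose and 2 fell in schisandrin B against normal, with medians of -0.26, 0.33 and -0.07. With library totals, 8 were higher and 5 lower in fibrosis against normal, and 6 higher and 7 lower in schisandrin B against fibrosis. Of all tested genes, library totals called 5651 higher and 1917 lower in the former comparison, and 2269 higher and 4698 lower in the latter. With TMM factors, the share of this list that was called lay near that of all tested genes. The latter was 48.3% in fibrosis against normal, 47.3% in schisandrin B against fibrosis and 10.5% in schisandrin B against normal. Deptor, an inhibitor of mTOR, averaged 69.0 CPM in schisandrin B, 15.1 CPM in fibrosis and 75.1 CPM in normal libraries. Lamtor2 and Lamtor4, parts of the lysosomal scaffold for mTORC1, rose by 1.73 ± 0.18 (adjusted p 3.07e-05) and 1.27 ± 0.18 (adjusted p 0.000231) in schisandrin B against fibrosis. The GTPase Rraga, which rests on that scaffold, fell there, at -1.02 ± 0.16 (adjusted p 0.000394).

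Of 13 tested partners, turnover factors and other carriers of amino acids and peptides, 4 rose and 2 fell in fibrosis against normal, and 2 rose and 4 fell in schisandrin B against fibrosis. These shares lay near the 48.3% and 47.3% of all tested genes that were called in the same comparisons. Cd44, a surface receptor that binds the Slc7a11 and Slc3a2 pair, averaged 2.68 CPM in schisandrin B, 64.4 CPM in fibrosis and 4.41 CPM in normal libraries. Bsg, a chaperone of surface carriers, averaged 441 CPM in schisandrin B, 196 CPM in fibrosis and 395 CPM in normal libraries. Slc15a1, the peptide carrier of gut, had 1 count in schisandrin B libraries, 79 in fibrosis libraries and 4 in normal libraries. Nedd4l, a ubiquitin ligase that removes carriers from the membrane, averaged 44.2 CPM in schisandrin B, 90.9 CPM in fibrosis and 31.9 CPM in normal libraries.

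Enzymes that use the transported amino acids in hepatocytes were mostly lower in fibrosis libraries. Of 28 tested, 2 rose and 15 fell in fibrosis against normal, 16 rose and 1 fell in schisandrin B against fibrosis, and 3 were called higher in schisandrin B against normal, with medians of -0.83, 0.94 and 0.16. Library totals gave 4 higher and 10 lower, then 12 higher and 2 lower, and 6 higher in these comparisons. Over all tested genes, they gave 5651 higher and 1917 lower, then 2269 higher and 4698 lower, and 1231 higher and 519 lower. With TMM factors, 25.4% of all tested genes rose and 22.9% fell in fibrosis against normal. In schisandrin B against fibrosis, 22.5% of them rose and 24.8% fell, and in schisandrin B against normal 5.25% were called in each direction. Glul, which makes glutamine, averaged 894 CPM in schisandrin B, 181 CPM in fibrosis and 803 CPM in normal libraries. Oat, which breaks down ornithine, averaged 424 CPM in schisandrin B, 43.9 CPM in fibrosis and 841 CPM in normal libraries. Aldh4a1, of proline breakdown, averaged 604 CPM in schisandrin B, 153 CPM in fibrosis and 704 CPM in normal libraries. Gamt, which makes creatine, averaged 279 CPM in schisandrin B, 136 CPM in fibrosis and 394 CPM in normal libraries. Each gene named from these lists, other than Eif2ak4, was called in both comparisons with the fibrosis libraries. The summed hepatocyte markers given above were lowest in the same fibrosis libraries. Of these 9, all with counts in every group, 6 were called lower against normal and 5 higher in schisandrin B against fibrosis. Alb was the largest part of each sum, with means of 141270 CPM in schisandrin B, 50982 CPM in fibrosis and 172060 CPM in normal libraries. In fibrosis against normal, Serpina1 (0.42, adjusted p 0.125) and Fgb (0.25, adjusted p 0.552) stood higher and Hnf4a lower (-0.66, adjusted p 0.0939), all without a call. Markers of bile duct cells, 6 in all and each with counts in every group, summed to 13.3 to 29.5 CPM in schisandrin B, 52.4 to 64.4 CPM in fibrosis and 20.1 to 25.1 CPM in normal libraries. Epcam and Krt19 made up most of the fibrosis sums, with means of 41.9 and 11.9 CPM. Of 5 tested, 3 were called higher in fibrosis against normal (Epcam, Krt19 and Spp1). In schisandrin B against fibrosis, 2 were called lower (Epcam and Krt19), and 3 were not called. Sox9, which was not tested, averaged 0.594 CPM in schisandrin B, 0.629 CPM in fibrosis and 0.913 CPM in normal libraries. Markers of neutrophils, 6 in all, summed to 2.10 to 6.42 CPM in schisandrin B, 15.6 to 21.1 CPM in fibrosis and 4.88 to 9.31 CPM in normal libraries. Only 3 of these, S100a8, S100a9 and Csf3r, had counts enough to be tested, and they made up most of the fibrosis sums. Among the others, Mpo averaged 0.451 CPM in schisandrin B, 0.0757 CPM in fibrosis and 0.638 CPM in normal libraries. The part of these cell types in the transporter changes was not tested.

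Sums are also given for the other liver cells whose markers were listed. The 9 stellate cell and fibroblast markers summed to 464 to 631 CPM in schisandrin B, 264 to 444 CPM in fibrosis and 249 to 393 CPM in normal libraries. Most of each sum was Col3a1, and single markers moved in opposite directions. In fibrosis against normal, 3 were called higher (Acta2 by 1.54, Des by 1.37 and Dcn by 2.11) and 1 lower (Lrat, -3.45). In schisandrin B against fibrosis, 4 were called higher (Lrat, Col1a1, Col3a1 and Lum) and 2 lower (Acta2 and Des). For 7 macrophage markers the sums were 548 to 802 CPM in schisandrin B, 617 to 1156 CPM in fibrosis and 947 to 1463 CPM in normal libraries. Clec4f was the largest part of each sum, and these markers also moved in opposite directions. In schisandrin B against normal, Clec4f (-0.97) and Cd163 (-1.24) were called lower, and 4 were not called. Trem2 was called higher there (3.33), with 47 counts in schisandrin B and 5 in normal libraries. For 8 T and NK cell markers the sums were 11.6 to 14.7 CPM in schisandrin B, 6.43 to 9.47 CPM in fibrosis and 18.8 to 25.6 CPM in normal libraries. The 7 endothelial markers summed to 299 to 333 CPM in schisandrin B, 258 to 316 CPM in fibrosis and 348 to 458 CPM in normal libraries.

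**Figure D4:**
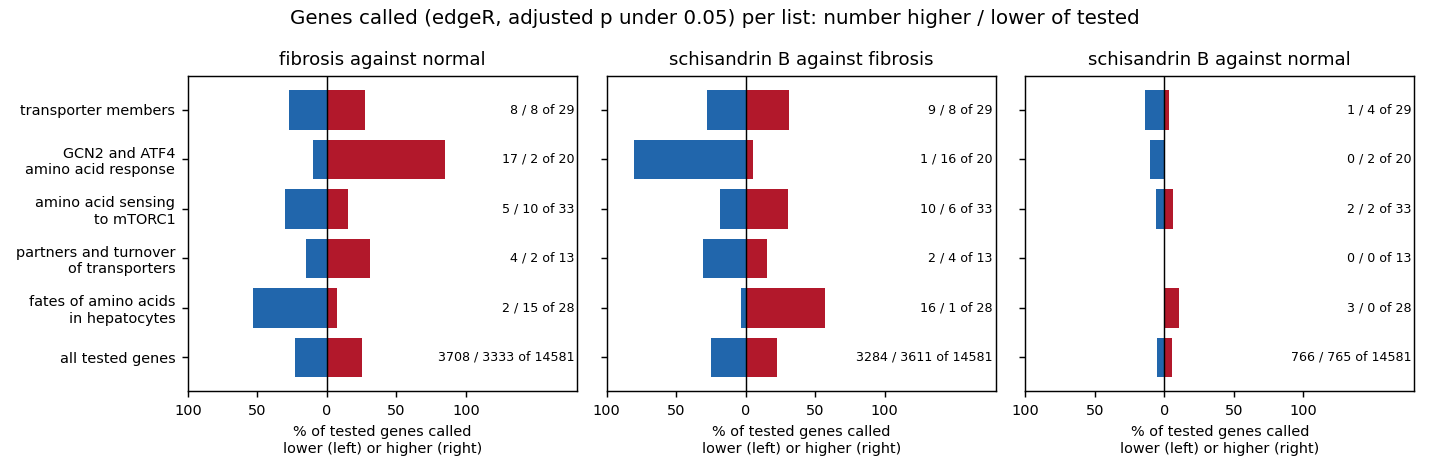
Share of tested genes called higher (red, right of 0) and lower (blue, left of 0) by edgeR in the 3 comparisons, in percent, for the transporters, for 4 related gene lists and for all 14581 tested genes, with the numbers higher and lower of those tested printed at the right. Of the GCN2 and Atf4 list, 17 of 20 are higher in fibrosis than in normal libraries and 16 lower in schisandrin B than in fibrosis libraries, while the 29 transporters stand at 8 higher and 8 lower, and at 9 higher and 8 lower.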

How the data were processed

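The authors deposited raw, whole-number counts of 37203 gene rows in 9 libraries. Per the labels' protocols, libraries were made by Ion Proton protocols from RNA with a RIN above 8. Aligner and counter: not given in the sources used here. Per the submitters' processing notes the build is GRCm38 of mouse, and the organism is listed as mouse, yet the strain is Wistar rat and the symbols are rat symbols (1317 rows are named RGD with a number and 1687 Olr), so genes are given by symbol, without positions, and no rat sequence was used here. Reads of related carriers may be shared between paralogs, and strand use is not stated, so antisense reads cannot be told apart.

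Testing used edgeR 4.0.16 in R 4.3.3: filterByExpr left 14581 genes, libraries were scaled by TMM factors, and a robust quasi-likelihood model with 1 mean per group was fitted to all 9 libraries and tested on each pair of groups. Adjusted p-values are Benjamini-Hochberg over all 14581 genes, called under 0.05. The SE of a log2 fold change is its size over the square root of F. Changes are log2 fold changes, and adjusted p-values in the text are edgeR's unless another tool is named. The scripts were tested on simulated data. Samples were grouped by source name, replicate numbers follow the order of deposit, and no covariate was used. Members called in any comparison at 1 CPM or more are named with each library's value, the other tested members by mean ± SD or by values. Of the 59 members, 1 is not reported here. From each related list, up to 4 genes called in both comparisons with fibrosis, with the lowest adjusted p, are named. Eif2ak4 and Cth are named besides, as the listed GCN2 and Atf4 genes called lower in fibrosis against normal. Members, role lists, related lists and alternatives were chosen with earlier results of these data known. Alternatives were DESeq2 1.42.0, limma 3.58.1 voom, DESeq2 size factors, library totals, no filter, fits of 2 groups, each library left out and, chosen after seeing the data, schisandrin B replicate 2 and normal replicate 2 left out together. Figures used Python 3.11.15 and matplotlib 3.10.9.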

Additional observations from a re-analysis of the deposited data

How the results depend on the processing

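With library totals, 5 members were called lower in fibrosis against normal in place of 8. Over all tested genes, 1917 were then called lower in place of 3333. Some alternatives test more members, because the filter on low counts is drawn anew, and with every member then tested the other alternatives that kept all libraries stayed within 1.5 times of each count of called members. Among the 29 alone, the omission of schisandrin B replicate 2 and normal replicate 2 left 2 in place of 4 called lower in schisandrin B against normal, and 3 of the 30 then tested. With 1 library left out, the calls among the 29 ranged over 7 to 9 higher and 6 to 11 lower in fibrosis against normal, over 8 to 11 higher and 6 to 9 lower in schisandrin B against fibrosis, and over 0 to 1 higher and 3 to 4 lower in schisandrin B against normal. With every member then tested (30 to 32), these ranges were 7 to 9 and 7 to 13 (13 without fibrosis replicate 3), 9 to 12 and 6 to 9, and 0 to 1 and 3 to 5. The single higher call in schisandrin B against normal, Slc38a2, was lost in 5 of 6 such fits, all of them with fewer samples. For the 29 tested members, no call changed sign. With 1 library left out, 28 fits lost a call, 15 gained one and 479 kept it or stayed uncalled, and in the other alternatives these numbers were 18, 22 and 567. For each comparison, a fit with 1 library left out was counted only where that library belonged to a group compared. In all alternatives so counted, 12 of 16 calls held in fibrosis against normal, 11 of 17 in schisandrin B against fibrosis and 2 of 5 in schisandrin B against normal. The cause of the changes was not tested, and calls over all genes were not counted for the fits that left libraries out. No paired analysis was possible because the labels give no replicate numbers shared between groups.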
